A study of Mus musculus with 12 samples.

Results

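Immediate early genes are genes that neurons transcribe within minutes of synaptic activity, from transcription factors that are already present in the cell and need no new protein. Calcium entry and the MAP kinase cascade act on CREB and on serum response factor at their promoters, the transcripts are short-lived, and in cortex their level is widely used as a trace of recent neuronal activity. Most encode transcription factors that set a second wave of genes, and a few, such as Arc, act at the synapse.

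The 10 members described here are Fos, Fosb, Fosl2, Junb, Egr1, Egr2, Egr4, Nr4a1, Npas4 and Arc, taken by gene symbol from the 33024 symbols of a raw count table of mouse cortex. All 10 were found and all 10 passed the expression filter that left 16059 genes. RNA sequencing of cortex tissue was carried out on 12 wildtype C57BL/6 mice, 7 Control mice given vehicle (water) and 5 EtOH mice that underwent binge-like drinking, from the abstinence arm of the study (Arm #2). In that arm, drinking began at 30 days of age, with a choice of water or 20% (v/v) ethanol for 12 h each night over 35 days, and was followed by 14 days without ethanol and then by maze, swim and rotarod tests. The mice were killed under anaesthesia and perfused with saline before the cortex was frozen, and the time between the last behavioural test and tissue collection is not given in the sources used here. The library numbers below are mouse numbers within each group.

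Total counts lay between 31768079 and 42183031 per library, and Control 5 and EtOH 1 (40690226 and 42183031 counts) were deeper than the other 10. Counts of a member in a mouse ran from 91 (Egr2) to 27080 (Egr1), while 3 counts, taken as the floor, equal at most 0.0944 CPM, a unit in which counts are divided by library size (TMM-scaled for gene levels). Differences between groups were tested across all genes with edgeR's quasi-likelihood test, and a gene was called where its fold change exceeded 0.5 on the log2 scale in either direction with a Benjamini-Hochberg adjusted p below 0.05. Cortical projection neuron markers were present in all mice, with summed levels of 2617 to 3165 CPM in Control and 2544 to 3107 CPM in EtOH mice, and 1 of 10 was called higher and 2 lower. The tissue nevertheless differed in regional markers, as all 14 striatal neuron markers were called lower in EtOH mice (summed level 1284 to 2610 CPM in Control and 338 to 368 CPM in EtOH mice) and 9 of 10 hippocampal neuron markers higher (108 to 149 CPM and 240 to 333 CPM). In bulk tissue fewer cells of a type and less RNA per cell cannot be told apart.

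The promoters of these genes are where the activity signal arrives, and the 300 bases before the annotated start of 4 members are shown to set members with and without the letters of the classical response elements side by side. The sequences are from the GRCm39 genome with the canonical starts of Gencode release 39, written 5′ to 3′ on the strand of the gene, and hold no annotated exon. Capitals mark, on either strand, the core of the cyclic AMP response element (TGACG, which reads CGTCA on the other strand), the CArG box bound by serum response factor, and the TATA box (TATAAA).
Fos, chr12:85520358-85520657, plus strand: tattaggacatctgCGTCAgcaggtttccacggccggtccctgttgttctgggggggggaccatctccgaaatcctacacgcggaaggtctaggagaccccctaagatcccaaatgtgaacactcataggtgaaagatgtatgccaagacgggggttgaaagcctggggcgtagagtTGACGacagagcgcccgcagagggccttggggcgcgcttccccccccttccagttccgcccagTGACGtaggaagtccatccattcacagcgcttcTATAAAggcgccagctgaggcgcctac
Fosb, chr7:19043977-19044276, minus strand: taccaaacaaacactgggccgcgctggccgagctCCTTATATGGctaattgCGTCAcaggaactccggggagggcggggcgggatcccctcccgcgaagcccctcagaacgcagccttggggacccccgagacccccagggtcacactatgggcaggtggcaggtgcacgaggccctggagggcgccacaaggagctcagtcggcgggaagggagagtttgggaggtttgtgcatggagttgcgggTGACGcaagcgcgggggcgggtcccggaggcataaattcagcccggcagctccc
Egr4, chr6:85490676-85490975, minus strand: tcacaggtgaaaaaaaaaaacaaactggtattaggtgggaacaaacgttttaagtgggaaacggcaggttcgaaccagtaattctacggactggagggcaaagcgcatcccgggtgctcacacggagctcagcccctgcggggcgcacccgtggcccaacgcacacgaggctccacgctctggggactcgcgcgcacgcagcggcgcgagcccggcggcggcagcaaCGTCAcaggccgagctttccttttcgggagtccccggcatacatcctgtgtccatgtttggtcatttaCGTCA
Fosl2, chr5:32292407-32292706, plus strand: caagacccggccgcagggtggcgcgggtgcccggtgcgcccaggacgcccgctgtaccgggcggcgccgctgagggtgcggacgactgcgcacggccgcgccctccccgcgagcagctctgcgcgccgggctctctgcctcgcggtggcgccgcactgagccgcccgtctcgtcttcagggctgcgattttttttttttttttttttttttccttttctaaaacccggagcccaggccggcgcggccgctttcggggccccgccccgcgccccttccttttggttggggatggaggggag

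The TGACG core was found in these 300 bases of 7 of the 10 members (Fos, Fosb, Junb, Egr1, Egr2, Egr4 and Nr4a1), whereas 19.9% of 21757 promoters of protein-coding genes hold it. Fos had 3 matches, the nearest starting 60 bases before the start, Fosb, Egr2, Egr4 and Nr4a1 had 2 each, and Junb and Egr1 had 1 each. A CArG box stood in Fosb and Egr2 (1.7% of all promoters), and TATAAA in Fos, Junb and Nr4a1 (14.2%). The complete element TGACGTCA (1.75%, it contains the core), the AP-1 site TGANTCA (7.38%) and the EGR site GCGTGGGCG (0.584%) matched none of the 10. The Fosl2 window shown above held none of the letters searched. For every member, a motif not found says only that its letters are not whole within these 300 bases. The Fos window opens on letters (tattagg) that could end a CArG box cut off by its edge, which was not examined. The annotated starts of Egr2 and Nr4a1 lie inside the span of the gene, downstream of other transcripts.

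Set per length of merged exons, the transcripts fell into 3 levels in Control cortex, and neighbours in the order stood more than their summed SDs apart only between Junb and Egr4 and between Npas4 and Fosb. Egr1 (100.1 ± 28.2 CPM per kb, SD, n = 7), Arc (69.1 ± 39.7) and Junb (39.01 ± 13.96) were the most abundant. Egr4 (13.9 ± 3.38), Fos (13.0 ± 6.14), Nr4a1 (13.0 ± 4.78) and Npas4 (11.5 ± 3.28) followed, and do not differ beyond their spread between mice. Fosb (4.58 ± 1.33), Fosl2 (3.81 ± 0.747) and Egr2 (3.12 ± 1.99) were the lowest, again with overlapping spreads. In EtOH mice Egr1 (114.6 ± 46.9 CPM per kb, SD, n = 5) and Arc (100.1 ± 59.4) again had the highest means, and Fos (24.8 ± 12.3), Nr4a1 (19.2 ± 10.2) and Egr4 (19.1 ± 9.53) were not separated beyond their spread. The lengths include every annotated transcript, which lowers the per-length level of genes with long alternative exons such as Nr4a1 and Fosl2.

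The comparison of EtOH with Control asks what binge-like drinking followed by abstinence left changed in the cortical transcriptome, here for genes that record recent activity. The fold change was positive for all 10 members, between 0.19 and 0.97 on the log2 scale with a median of 0.55, against a median of 7.2e-05 over all genes tested. Of the 10, 3 were called higher in EtOH mice (Fosl2, Fos and Junb) and 0 lower by edgeR's quasi-likelihood test. These 3 are subunits of AP-1, as is Fosb, which was not called. The same 3 had an unadjusted p under 0.05, as did 36.5% of all genes tested. Over all genes tested, 674 were called higher, which is 4.2%, and 657 lower, which is 4.09%. In no member did the EtOH mice stand wholly above the Control mice, as was the case for 4.84% of genes tested. The count depended on the tool and on the libraries kept. With DESeq2 or limma voom only Fosl2 was called. Without both deep libraries, Control 5 and EtOH 1, 6 members were called higher (Fos, Fosl2, Junb, Egr2, Npas4 and Nr4a1). Without EtOH 2 also 6 were called (Fos, Fosb, Fosl2, Junb, Egr2 and Egr4), and without any 1 of 8 other mice only Fosl2. The members vary together between mice, as described further on, so that the common sign is not 10 separate observations.

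**Figure D1:**
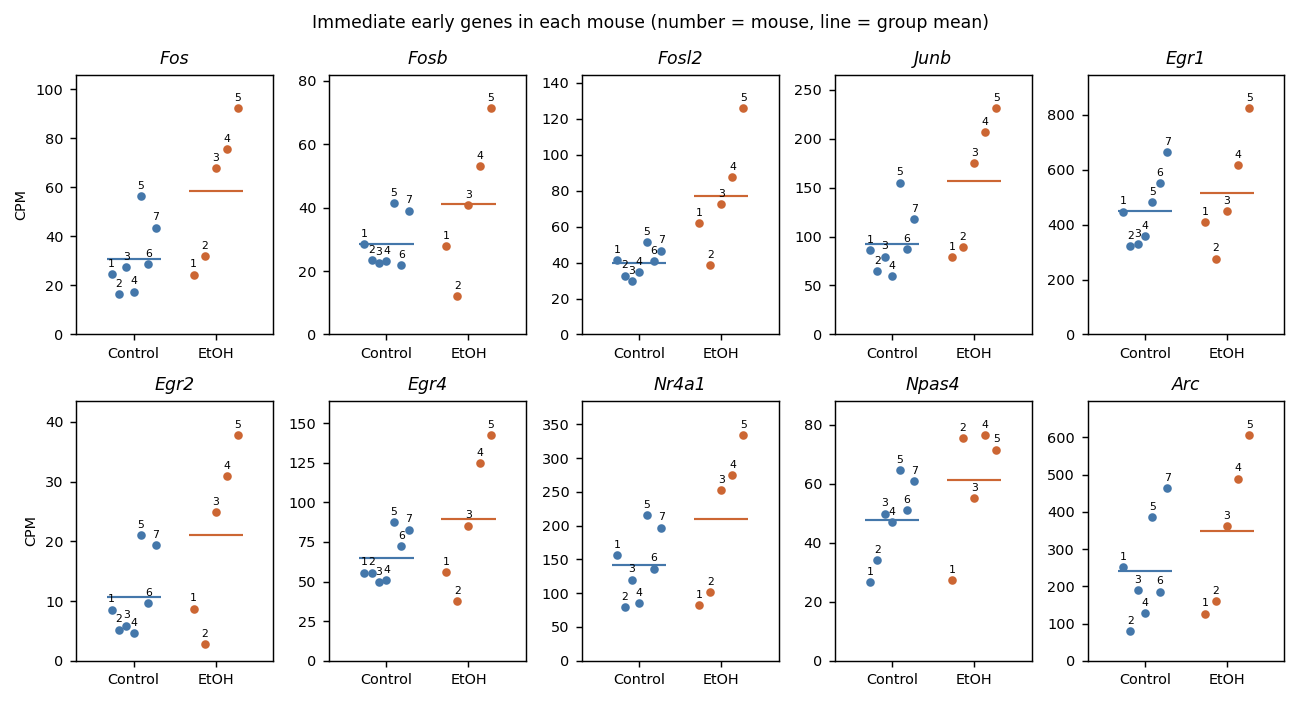
CPM (y axis, linear from 0) of each of the 10 immediate early genes in 7 Control and 5 EtOH mice (points, with mouse numbers; lines are group means). EtOH mice 3, 4 and 5 lie above the Control median in every panel, and the groups overlap for all 10.

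The AP-1 subunits come first. Fos, a partner of Jun proteins and the classical marker of activated neurons (GRCm39 chr12:85520658-85524047, plus strand, 4 merged exons), ranged from 16.3 to 56.3 CPM in the 7 Control mice, with a median of 27.4 CPM. It was 24.4, 31.8, 67.8, 75.6 and 92.2 CPM in EtOH mice 1 to 5. EtOH mice 3, 4 and 5 lay above every Control mouse, whereas EtOH 1 and 2 lay inside the Control range. The means were 30.6 ± 14.5 CPM in Control (SD, n = 7) and 58.4 ± 29.1 CPM in EtOH mice (SD, n = 5), and the log2 fold change was 0.92 ± 0.32 (SE), with a 95% interval of 0.25 to 1.60 and an adjusted p of 0.044 by edgeR.

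Junb, the Jun family protein that pairs with Fos proteins (chr8:85701113-85705359, minus strand), behaved much alike. It ranged from 59.9 to 155 CPM in the 7 Control mice, with a median of 86.0 CPM, and was 79.4, 89.5, 175, 206 and 231 CPM in EtOH mice 1 to 5. The same 3 EtOH mice exceeded every Control mouse, and EtOH 1 and 2 were close to the Control median. Its log2 fold change was 0.75 ± 0.26 (SE), with a 95% interval of 0.20 to 1.29 and an adjusted p of 0.0436 by edgeR. The calls of Fos and Junb were near the threshold: both were lost with DESeq2 (adjusted p 0.073 for Fos and 0.0752 for Junb), with limma voom, and when any 1 of Control 1, 2, 3, 4 or 6 or EtOH 3, 4 or 5 was left out (log2 fold change 0.70 at the lowest for Fos and 0.56 for Junb, adjusted p up to 0.143 by edgeR). Opposite-strand exons of Prdx2 and Gm65321 share 7.27% and 6.09% of the exon length of Junb, and since the strand setting of the counting is not given, how far this touches its counts is not known.

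Fosl2, which encodes the Fos-related antigen Fra-2 (chr5:32292707-32315186, plus strand), gave the clearest difference among the members. It ranged from 29.8 to 51.4 CPM in the 7 Control mice, with a median of 40.7 CPM. In the EtOH group it was 61.8, 38.5, 72.7, 87.5 and 126 CPM in EtOH mice 1 to 5. EtOH 1, 3, 4 and 5 lay above the highest Control mouse, and EtOH 2 just below the Control median. The means were 39.6 ± 7.76 CPM in Control (SD, n = 7) and 77.2 ± 32.5 CPM in EtOH mice (SD, n = 5), 1.95-fold apart, with a log2 fold change of 0.96 ± 0.20 (SE), a 95% interval of 0.53 to 1.39 and an adjusted p of 0.00251 by edgeR. It remained called in all 12 fits that leave out 1 mouse (log2 fold change 0.71 to 1.12, adjusted p at most 0.00894 by edgeR). Fosl2 also had the smallest spread within groups of the 10. Exons of the opposite-strand gene Gm72529 share 4.09% of its exon length.

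Fosb, whose spliced form ΔFosB is long-lived and builds up under repeated stimulation (chr7:19036621-19043976, minus strand), ranged from 21.8 to 41.4 CPM in the 7 Control mice, with a median of 23.4 CPM. It was 27.8, 12.2, 40.8, 53.1 and 71.3 CPM in EtOH mice 1 to 5. EtOH 4 and 5 lay above all Control mice, while EtOH 2 was the lowest of the 12. Its log2 fold change of 0.52 ± 0.29 (SE) did not pass the test (95% interval -0.10 to 1.13, adjusted p = 0.209 by edgeR), and it depended on single mice, being 0.74 and called without EtOH 2 (adjusted p = 0.0194 by edgeR) but 0.22 without EtOH 5 (adjusted p = 0.612 by edgeR). Counts per gene symbol do not separate the spliced form from the full-length transcript.

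None of the 3 EGR zinc-finger factors passed the test. Egr1, also known as Zif268 and the most abundant member per length (chr18:34992876-34998049, plus strand), ranged from 320.4 to 664 CPM in the 7 Control mice, with a median of 448 CPM, and was 410.2, 276, 450.0, 617 and 823 CPM in EtOH mice 1 to 5. Only EtOH 5 exceeded every Control mouse, and EtOH 2 was the lowest of all. The log2 fold change was 0.19 ± 0.22 (SE), with a 95% interval of -0.27 to 0.66 and an adjusted p of 0.556 by edgeR, and it ran from -0.040 without EtOH 5 to 0.35 without EtOH 2, called in neither fit. This was the smallest fold change among the 10.

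Egr2, a paralogue with the same type of DNA-binding domain (chr10:67371305-67378018, plus strand), had the widest range of all members over the EtOH mice. It ran from 4.69 to 21.0 CPM in the 7 Control mice, with a median of 8.58 CPM, and was 8.72, 2.83, 24.9, 30.9 and 37.8 CPM in EtOH mice 1 to 5. The highest EtOH mouse was 13.4-fold above the lowest, and the highest Control mouse 4.48-fold above the lowest (5.76-fold for Arc). Its fold change was the highest in value, 0.97 ± 0.48 (SE) on the log2 scale, but with a 95% interval of -0.03 to 1.98 it did not pass the test (adjusted p = 0.149 by edgeR). Without EtOH 2 it was 1.25 and called, with an adjusted p of 0.0296 by edgeR, and without EtOH 5 it was 0.65, with an adjusted p of 0.381.

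Egr4, a further EGR factor (chr6:85485678-85490675, minus strand), ranged from 49.5 to 87.7 CPM in the 7 Control mice, with a median of 55.7 CPM. It was 55.9, 37.5, 85.3, 125 and 143 CPM in EtOH mice 1 to 5. EtOH 4 and 5 lay above all Control mice and EtOH 2 below all of them. The log2 fold change was 0.46 ± 0.25 (SE) (95% interval -0.07 to 0.98, adjusted p = 0.197 by edgeR), and 0.65 without EtOH 2 (adjusted p = 0.031 by edgeR), where it was called, but 0.22 without EtOH 5 (adjusted p = 0.557 by edgeR). Exons of Gm67895 on the opposite strand share 21.62% of the exon length of Egr4.

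Nr4a1, an orphan nuclear receptor also called Nur77 (chr15:101151980-101172681, plus strand), ranged from 79.5 to 216 CPM in the 7 Control mice, with a median of 137 CPM, and was 82.6, 102, 252, 275 and 335 CPM in EtOH mice 1 to 5. The pattern followed Fos, with EtOH 3, 4 and 5 above every Control mouse and EtOH 1 and 2 in the lower part of the Control range. Its log2 fold change of 0.56 ± 0.31 (SE) did not pass the test (95% interval -0.09 to 1.22, adjusted p = 0.196 by edgeR). It was 0.33 without EtOH 5 (adjusted p = 0.493 by edgeR) and 0.91 without both deep libraries (adjusted p = 0.0255 by edgeR). Gm63180 on the opposite strand shares 6.02% of its exon length.

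Npas4, a neuron-specific bHLH-PAS factor that calcium entry switches on (chr19:5034382-5040344, minus strand), had a pattern of its own. It ranged from 26.5 to 64.6 CPM in the 7 Control mice, with a median of 49.8 CPM, and was 27.3, 75.5, 55.0, 76.6 and 71.5 CPM in EtOH mice 1 to 5. EtOH 2, the mouse with the lowest Fosb, Egr1, Egr2 and Egr4, was here second highest of the 12, and EtOH 1 second lowest. The log2 fold change was 0.36 ± 0.23 (SE) (95% interval -0.12 to 0.83, adjusted p = 0.268 by edgeR). Without EtOH 1 it was 0.55 and called, with an adjusted p of 0.0432 by edgeR.

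Arc, the cytoskeleton-associated protein that drives internalisation of AMPA receptors at active synapses (chr15:74540932-74544419, minus strand, 1 merged exon), ranged from 80.6 to 465 CPM in the 7 Control mice, with a median of 189 CPM. It was 127, 160.5, 362, 489 and 607 CPM in EtOH mice 1 to 5. EtOH 4 and 5 lay above all Control mice, and EtOH 1 was lower than all Control mice but Control 2. The log2 fold change was 0.53 ± 0.40 (SE) with a 95% interval of -0.30 to 1.37 and an adjusted p of 0.352 by edgeR. It was 0.24 without EtOH 5 and 0.91 without both deep libraries, and called in neither fit. Its spread between mice was second only to that of Egr2.

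**Figure D2:**
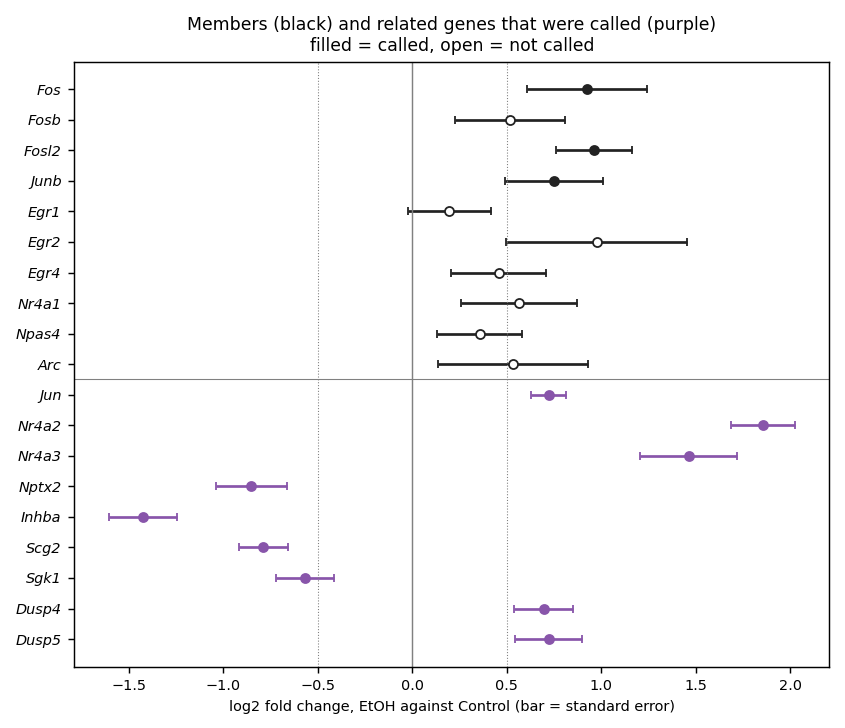
Log2 fold change of EtOH against Control (x axis) for the 10 members (black) and for the 9 related genes that were called (purple), with bars of 1 standard error; filled points were called, open points not, and dotted lines mark the minimum of 0.5. All 10 members lie right of 0, and the 3 that were called are Fos, Fosl2 and Junb.

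The members varied widely within a group. The within-group SD of log2 CPM ran from 0.455 for Fosl2 to 1.19 for Egr2, with a median of 0.637, against a median of 0.155 over all genes tested. The members lay at the 89.2 percentile of that spread or higher, and 5 of 10 above the 95th (Fos, Fosb, Egr2, Nr4a1 and Arc). This was not particular to them, as related genes such as Atf3 (99.6 percentile), Ccn1 (99.3) and Btg2 (98.0) and the blood markers (99.4 for Alas2 to 99.95 for Hbb-bt) varied as much or more.

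The spread was shared. Taken as the mean log2 CPM of the 10 members, the level was 5.90, 5.39, 5.72, 5.51, 6.63, 6.00 and 6.56 in Control mice 1 to 7 and 5.74, 5.55, 6.72, 7.06 and 7.34 in EtOH mice 1 to 5. Both groups thus held mice with high and with low levels: Control 5 and 7 and EtOH 3, 4 and 5 were above the Control median for 10 of 10 members, and Control 2 and 4 were among the lowest 5 of the 12 mice for 10 of 10. EtOH 4 and EtOH 5 were first or second for 9 of 10 members each, the exceptions being Egr1 for EtOH 4 and Npas4 for EtOH 5.

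**Figure D3:**
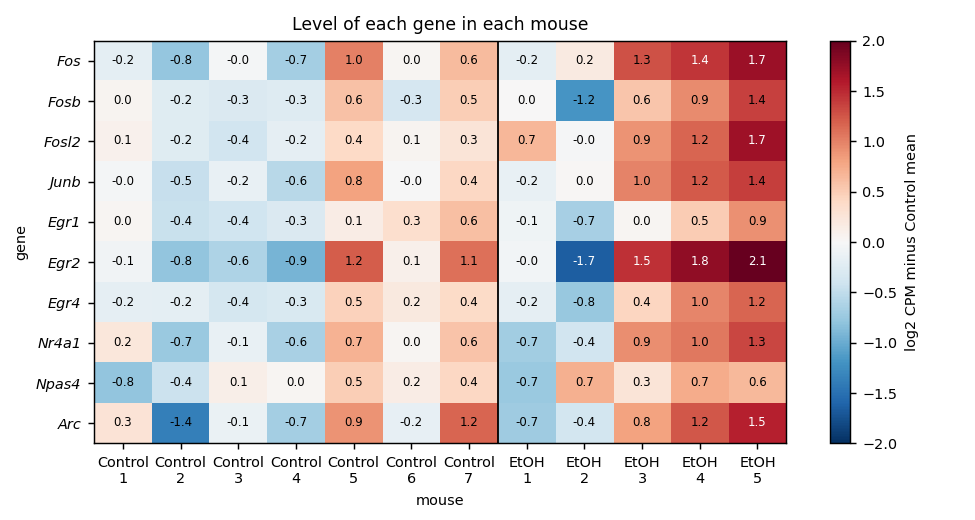
Log2 CPM minus the Control mean of the same gene (colour and number in each cell) for the 10 members (rows) in each of 12 mice (columns; the line separates Control from EtOH). Many columns are mostly 1 colour: Control 5 and 7 and EtOH 3, 4 and 5 are above 0 for all 10 genes (Egr1 in EtOH 3 rounds to 0), and EtOH 2 is lowest for Fosb, Egr1, Egr2 and Egr4 but high for Npas4.

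After the mean of each group was removed, the 45 pairs of members had a median Pearson r of 0.845 over the 12 mice, from 0.210 to 0.986. The 36 pairs without Npas4 ran from 0.759 to 0.986 with a median of 0.884. The 9 pairs that include Npas4 were between 0.210 and 0.660 with a median of 0.407, so that Npas4 was the member least tied to the others. These are descriptions of 12 libraries that share tissue, preparation and normalisation.

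Because the members move together, each was also compared with the other 9 in the same mouse, a setting chosen after the values had been seen. With the mean log2 CPM of the other 9 as a covariate in the edgeR fit, Fosl2 kept a log2 fold change of 0.60 ± 0.11 (SE, adjusted p = 0.00126) and was called. Fos was 0.34 ± 0.12 (adjusted p = 0.0619 by edgeR) and Junb 0.24 ± 0.08 (adjusted p = 0.0538), and neither was called. Npas4 was at 0.21 and the other 6 between -0.26 and -0.12, with none called. All 10 had positive fold changes and each was set against the other 9. A negative value is thus relative to what the covariate predicts, and does not mean a lower level in EtOH mice. EtOH 3, 4 and 5 lie beyond the Control range of the covariate. Directly as the log2 CPM minus the mean of the other 9, Fosl2 was -0.74 ± 0.29 in Control (SD, n = 7) and -0.35 ± 0.36 in EtOH mice (SD, n = 5), a difference of 0.39. Fos differed as much on this scale, by 0.40 (-1.27 ± 0.24 and -0.88 ± 0.25), and Egr1 was 3.12 ± 0.30 and 2.70 ± 0.37, a difference of -0.42. For these genes, as for every other member, the groups overlapped on this scale. Differences on both sides of 0 follow here from setting the members against each other.

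**Figure D4:**
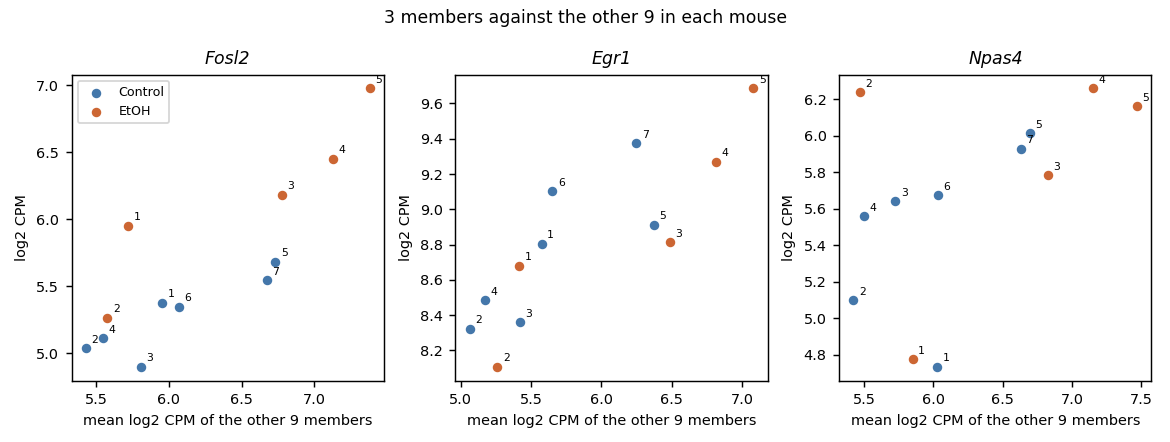
Log2 CPM of Fosl2, Egr1 and Npas4 (y axes) against the mean log2 CPM of the other 9 members (x axes) in 7 Control and 5 EtOH mice (points with mouse numbers). EtOH 1 and 2 lie above Control mice of a like x value for Fosl2, EtOH 3, 4 and 5 lie beyond the Control range of x, EtOH 3 and 4 have the lowest Egr1 relative to the other 9, and EtOH 2 stands apart for Npas4.

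The other genes of the activity response were read from lists of related genes. Of 21 other primary response transcription regulators, 20 were tested (Fosl1 did not pass the filter), 3 were called higher and 0 lower, with a median log2 fold change of 0.21. Nr4a2, or Nurr1, a nuclear receptor of the same family as Nr4a1, was 26.0 to 41.3 CPM in the Control mice and 108, 62.3, 135, 146 and 164 CPM in EtOH mice 1 to 5, without overlap, and its log2 fold change was 1.86 ± 0.17 (SE) (adjusted p = 5.17e-07 by edgeR). Nr4a3, or Nor1, the third of that family, was 17.1 to 50.7 CPM in Control and 45.3 to 128 CPM in EtOH mice, with a log2 fold change of 1.46 ± 0.26 (SE) (adjusted p = 0.000566 by edgeR). Jun, the usual partner of Fos, was 35.04 to 47.66 CPM in Control and 50.1 to 79.1 CPM in EtOH mice, without overlap, with a log2 fold change of 0.72 ± 0.09 (SE) (adjusted p = 3.11e-05 by edgeR). Its exons are shared over 16.56% of their length with the opposite-strand transcript Junos. These 3 genes remained called in each of the 12 fits without 1 mouse, and with the mean of the 10 members as a covariate (1.57 for Nr4a2, 1.08 for Nr4a3 and 0.65 for Jun on the log2 scale). The marker lists of hippocampal and striatal neurons moved between the same groups, and their part in these results was not tested.

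Feedback inhibitors were tested for all 12 listed, with 2 called higher, 0 lower and a median log2 fold change of 0.10. The 2 were the MAP kinase phosphatases Dusp4 (0.69 ± 0.16 (SE), adjusted p = 0.00381 by edgeR; 10.4 ± 2.21 CPM in Control and 16.8 ± 4.00 CPM in EtOH mice (SD)) and Dusp5 (0.72 ± 0.18 (SE), adjusted p = 0.00731; 12.7 ± 2.85 CPM in Control and 21.1 ± 6.37 CPM in EtOH mice (SD)). With the mean of the 10 members as a covariate, Dusp4 was 0.52 and remained called, while Dusp5 fell to 0.39, under the fold minimum (adjusted p = 0.006 by edgeR). Dusp5 shares 22.37% of its exon length with an opposite-strand gene. Dusp14 (-0.43), Spry2 (-0.34) and Spred1 (-0.35) were lower with an adjusted p of 0.0115 or less by edgeR, short of the fold minimum. Of 20 activity-induced effectors, which include primary response genes such as Ptgs2 and Homer1, 0 were called higher and 4 lower, with a median of -0.0020. Those lower were Inhba, a subunit of activin (-1.43 ± 0.18 (SE), adjusted p = 2.29e-05 by edgeR), Nptx2, a neuronal pentraxin that gathers AMPA receptors (-0.85 ± 0.19 (SE), adjusted p = 0.00322), Scg2, a secretogranin of dense-core vesicles (-0.79 ± 0.13 (SE), adjusted p = 0.000344), and the kinase Sgk1 (-0.57 ± 0.15 (SE), adjusted p = 0.0128). Sgk1 was no longer called without Control 7 (-0.44) or without both deep libraries (-0.47). Other effectors had an adjusted p under 0.05 by edgeR but fell short of the fold minimum. Of these, Amigo3 (0.498) and Ptgs2 (0.39) were higher, and Vgf (-0.44), Rgs2 (-0.45) and Rheb (-0.25) lower. Of 23 upstream kinases, coactivators and transcription factors 0 were called in either direction by edgeR, DESeq2 or limma voom, 9 had an unadjusted p under 0.05 by edgeR (36.5% of all genes tested did), and their median log2 fold change was 0.05.

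The related genes were split by whether they followed the members from mouse to mouse. The list means of the other regulators and of the feedback inhibitors followed the mean of the members closely over the 12 mice within groups (Pearson r 0.939 and 0.967), those of the effectors and upstream genes less so (0.750 and 0.663). Single genes followed less closely than list means. Their median r was 0.73 for the other regulators, 0.76 for the feedback inhibitors, 0.30 for the effectors and 0.24 for the upstream genes. The 4 effectors called lower had r of -0.49 for Inhba, -0.52 for Scg2, -0.09 for Nptx2 and 0.55 for Sgk1. Jun had r = 0.42, against 0.75 for Nr4a2 and 0.82 for Nr4a3. For single members, whose own values are part of the mean, r was 0.52 for Npas4 and 0.89 or more for the other 9.

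**Figure D5:**
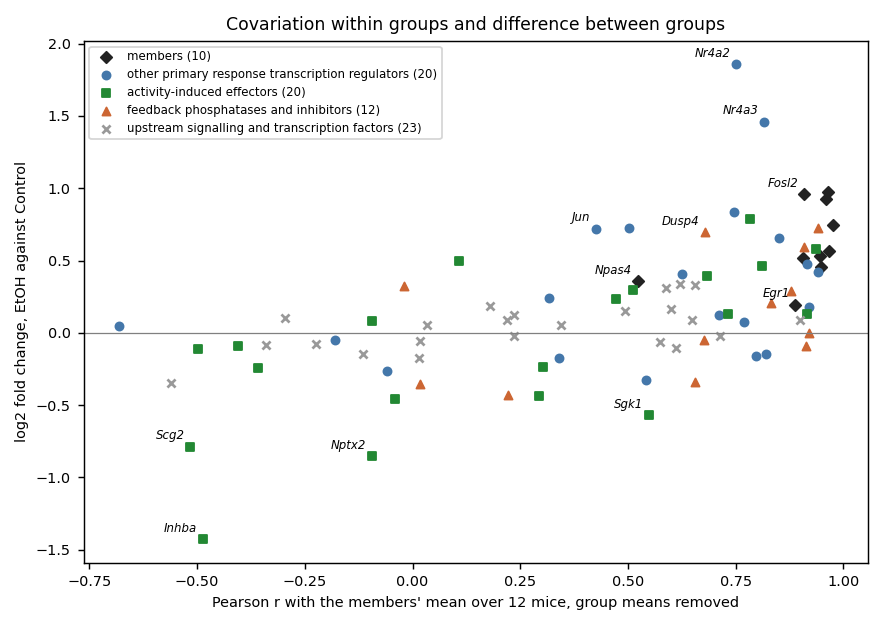
Pearson r of each gene with the mean of the 10 members over 12 mice after group means were removed (x axis) against its log2 fold change of EtOH against Control (y axis), for the members and 4 related lists (numbers of genes tested in the legend). 9 of 10 members crowd at the right above 0, while of the 4 effectors called lower, 3 lie at negative r.

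The other cell type lists were examined beside these results. The mean of the striatal markers had an r of -0.55 with that of the members within groups and the hippocampal markers -0.46, the projection neuron markers 0.22. Of 6 oligodendrocyte markers 2 were called lower and all 6 had an unadjusted p under 0.05 (summed level 4285 to 5703 CPM in Control and 2872 to 5139 CPM in EtOH mice, r -0.41 with the members), of 6 astrocyte markers 1 higher, with 5 at an unadjusted p under 0.05 (2751 to 3282 CPM and 3153 to 3659 CPM, r -0.04), of 6 endothelial markers 1 lower, with 1 at such a p (202 to 227 CPM and 193 to 214 CPM, r -0.54), and of 6 microglia markers 0, with 5 at such a p (293 to 320.2 CPM and 253 to 277 CPM, r -0.44). None of 5 blood markers was called by edgeR, and 0 had an unadjusted p under 0.05 (9.18 to 128 CPM and 9.74 to 74.1 CPM, r -0.03). The 5139 CPM of the oligodendrocyte markers was that of EtOH 2, against 2872 to 3576 CPM in the other EtOH mice. The part of these lists in the members' differences was not tested.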

How the data were processed

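RNA of 12 cortex samples was sequenced on the DNBSEQ platform of BGI. According to the submitters' processing notes and methods, the authors checked reads with FastQC 0.11.9, aligned them to GRCm39 with STAR and Gencode Release 28, counted them with featureCounts and used DESeq2. Strand and multi-mapping settings are not given in the sources used here. The authors deposited expected counts per gene symbol, without normalization, and values of 61 symbols are not whole. These were rounded.

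Genes were filtered with filterByExpr, scaled with TMM and compared with edgeR 4.0.16 (glmQLFit and glmQLFTest, R 4.3.3, limma 3.58.1) with Benjamini-Hochberg adjustment over 16059 genes. The standard error is the size of the fold change over the square root of F. Log2 CPM used a prior count of 2. DESeq2 1.42.0, limma voom, other factors, filters, fold minimums, a replicate block and leaving out each mouse were alternatives. The fits were tested on simulated data. Positions are from Gencode release 39.

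The members and gene lists were chosen with earlier results of these data known. The text names every member, the genes called in each related list, and the 10 genes whose log2 CPM was most correlated with the mean of the members, group means removed. Other lists hold markers of cell types. Nothing says that the mice were processed in batches, and each library is labelled as a separate sample. Libraries within a group differed by more than sampling noise, with a chi-square per degree of freedom of 7.84 or more. Pairs that include Control 5 ran from 32.8 to 54.7, other Control pairs up to 30.3, and EtOH pairs from 9.73 to 33.6. The floor of 3 counts covers counting error only, while the intervals of fold changes include the spread between mice.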

Additional observations from a re-analysis of the deposited data

Results flagged for a closer look

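The total count of 1 library in each group stood far from the others. Control 5 held 40690226 counts, against 32356909 in the next Control library, and EtOH 1 held 42183031, against 33313165 in the next EtOH library. Among 60 groups of values examined in this way these 2 were flagged, and chance gives about 3. For none of the 10 members did a mouse of either group stand that far from the others. In Control 5 all 10 members were among the 5 highest of the 12 mice, and in EtOH 1 this held for 1 member, Fosl2.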

How the results depend on the processing

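Fosl2 was called under all of the scalings, filters and tools run and without each mouse, except at a minimum log2 fold change of 1. The members called were 1 with DESeq2, 1 with limma voom, 6 without both deep libraries, 0 at that minimum, and 1 to 6 when each mouse was left out, against 3. The related genes called were 14 with the replicate block, 16 without both deep libraries, 25 without a fold minimum, 3 at a minimum of 1, and 9 to 16 without each mouse, against 9. Over all genes 1331 were called, 3810 without a fold minimum, 524 at a minimum of 1, and 1162 to 1501 without each mouse. With the other members as a covariate, chosen after the values were seen, the log2 fold change reversed to -0.12 for Fosb, -0.23 for Egr1, -0.13 for Egr2, -0.12 for Egr4, -0.26 for Arc and -0.13 for Nr4a1, none of them called in either fit. These values are relative to the other members, which all had positive fold changes, and do not mean lower levels in EtOH mice. That of Dusp5 fell below the minimum, at 0.39. Egr1 reversed to -0.040 without EtOH 5 (range 0.35 at the highest). The cause of that was not tested. Replicate numbers are numbers within each group. Deviations of same-numbered mice correlated between -0.108 and 0.0182 over all genes tested, which gives no sign of pairing but cannot exclude it for some genes. With the replicate block 3 members were called. The block lowered the SE of Fos from 0.32 to 0.21 and raised that of Inhba from 0.18 to 0.19. With Egr2 at 91 counts in its lowest library, depth limits the members little beside the spread between mice.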

Other observations

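The 10 genes outside the members that followed the mean of the members most closely over the 12 mice, group means removed, were Tob2 (Pearson r 0.958), Mex3d (0.951), Dmpk (0.950), Dusp5 (0.942), Per1 (0.941), Sik1 (0.936), Midn (0.936), Tiparp (0.934), Pvr (0.924) and Adrb1 (0.923). Spearman's rho was between 0.881 and 0.958. An r above 0.8 was found in 0.760% of genes tested. Of the 10, Dusp5, Per1 and Sik1 are in the lists of related genes: Per1 is a component of the circadian clock that is also induced by activity, and Sik1 is a salt-inducible kinase. Dusp5, Tiparp (log2 fold change 0.59 ± 0.21 SE, adjusted p = 0.0469 by edgeR) and Pvr (0.55 ± 0.16, adjusted p = 0.0215) were called higher in EtOH mice. Tob2, the gene most like the members, was 32.6 CPM in Control and 32.3 CPM in EtOH mice, with a log2 fold change of -0.02 ± 0.11, and Dmpk was -0.13 ± 0.08. Per1 ranged from 102 to 212 CPM in Control and from 108 to 288 CPM in EtOH mice, with its highest values in EtOH 5 and EtOH 4 and its lowest in Control 4 and Control 2.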
